A study of Mus musculus with 2 samples.

Results

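The genes of 2 families of small chromatin proteins were followed in microglia sorted from the sham-operated mouse brain. They were Hmgb1, Hmgb2 and Hmgb3 of the HMGB family, Hmgn1, Hmgn2 and Hmgn3 of the HMGN family, and Ager, which encodes the receptor RAGE. All 7 were found by matching the Ensembl identifiers of the count tables to gene symbols, among 53801 genes in all. A minimum of 10 counts per library was set for a gene to be compared, and it was met by 6 of these 7 genes and by 13445 genes of the whole table. Ager fell short of that minimum.

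The data were 2 bulk RNA-seq libraries, sham libraries 1 and 2, each labelled WT sham microglia. Each came from the brain of 1 hemizygous CX3CR1(CreER/WT) mouse on a C57BL/6 background, in which 1 allele of Cx3cr1 drives a Cre recombinase that tamoxifen switches on, and which stood in as wild type for conditional knockouts. Both mice had tamoxifen at 75 mg/kg per day for 4 days, sham surgery 14 days after the first dose, and both libraries were made from sorted CD11c–Ly6G–CD11b+CD45low cells from the left hemisphere 3 days after surgery. The series describes male mice aged 8 to 10 weeks, whereas the study's methods give an older range and both sexes. The treatment label of both samples reads none, although their titles name sham. Libraries of the middle cerebral artery occlusion arm were not analysed here, so there was 1 group, no contrast of conditions and no p-value. The ratio between the libraries therefore describes the spread between 2 mice of that group, and its interval covers counting error only.

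HMGB proteins bend DNA inside the nucleus through paired HMG-box domains and end in an acidic tail. When cells are stressed, activated or dying, HMGB1 leaves the nucleus and the cell and acts as an alarmin, a danger signal read by RAGE and by Toll-like receptors on microglia and other innate immune cells. HMGN proteins bind to the nucleosome itself and compete there with linker histone H1, which loosens chromatin. HMGB2 is best known from dividing and immature cells, and RAGE from the lung.

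The ends of the coding sequences are shown because they hold the acidic tail, the feature in which the HMGB members differ most plainly. The last 40 codons before the stop codon are given 5′ to 3′ from the GENCODE M21 transcripts (GRCm38), and capitals mark the unbroken run of codons that begin with GA. Such codons encode aspartate or glutamate.
Hmgb1: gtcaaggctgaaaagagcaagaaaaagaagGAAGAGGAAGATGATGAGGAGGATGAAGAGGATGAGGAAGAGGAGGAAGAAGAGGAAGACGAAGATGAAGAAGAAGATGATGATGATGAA
Hmgb2: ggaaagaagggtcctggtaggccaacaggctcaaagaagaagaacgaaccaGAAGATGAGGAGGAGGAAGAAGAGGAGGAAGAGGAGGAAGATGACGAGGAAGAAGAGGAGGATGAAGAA
Hmgb3: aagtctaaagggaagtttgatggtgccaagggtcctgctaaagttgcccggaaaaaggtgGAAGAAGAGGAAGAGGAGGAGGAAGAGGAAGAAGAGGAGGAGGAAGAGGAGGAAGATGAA
The run was 30 codons long in Hmgb1, 23 in Hmgb2 and 20 in Hmgb3, and in each of them it reached the last codon. The coding sequence of Hmgb1 had 215 codons, that of Hmgb2 210 and that of Hmgb3 200. Over the aligned coding bases Hmgb1 and Hmgb2 were 78.7% identical, Hmgb2 and Hmgb3 74.3%. The HMGN coding sequences were shorter, with 96 codons in Hmgn1, 90 in Hmgn2 and 99 in Hmgn3, and no GA run in them exceeded 3 codons. Identity between HMGN members lay between 65.1% and 69.4%. Ager, a membrane receptor, had 402 codons.

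The members lie on 7 different chromosomes. In GRCm38, Hmgb1 (ENSMUSG00000066551) spans chr5:149046702-149184489 on the minus strand, Hmgb2 (ENSMUSG00000054717) chr8:57511907-57515999 on the plus strand and Hmgb3 (ENSMUSG00000015217) chrX:71555918-71560676 on the plus strand. Hmgn1 (ENSMUSG00000040681) spans chr16:96120618-96127729 and Hmgn2 (ENSMUSG00000003038) chr4:133964738-133968650, both on the minus strand. Hmgn3 (ENSMUSG00000066456) spans chr9:83109948-83146685 on the minus strand and Ager (ENSMUSG00000015452) chr17:34597862-34600936 on the plus strand. The representative transcripts of the HMGB genes have 5 exons, those of the HMGN genes 6 and that of Ager 11. Counts were per gene over its exons.

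The libraries differed in depth and in RNA of cells other than microglia. Counts on genes came to 23381026 in library 1 and to 41142609 in library 2. Levels were scaled to 1000000 of these counts (CPM), on which scale the 3 counts compatible with a reading of 0 stand for 0.128 CPM in the former and 0.0729 CPM in the latter. Mitochondrially encoded genes took 0.766% and 0.391% of counts. All 10 microglia markers were counted in both libraries, their sum was 40301 CPM in library 1 against 47521 CPM in library 2, and 9 of 10 lay within 2-fold, while Sall1 had a log2 ratio of −1.20 that was 0.03 after the GC and length adjustment. With TMM, DESeq2 size factors or that adjustment, 1 marker was over 2-fold higher and 0 lower. The 10 immature neutrophil markers, led by Ngp, summed to 1698 and 31583 CPM, and the 9 mature neutrophil markers, which include Ly6g of the sorting gate, to 3010.1 and 31323 CPM. The 10 dividing cell markers summed to 30.6 and 162 CPM. None of these 4 lists had a marker at 0 counts in either library. The spread of all genes between the libraries, as the common biological coefficient of variation of edgeR, was 0.483.

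**Figure D1:**
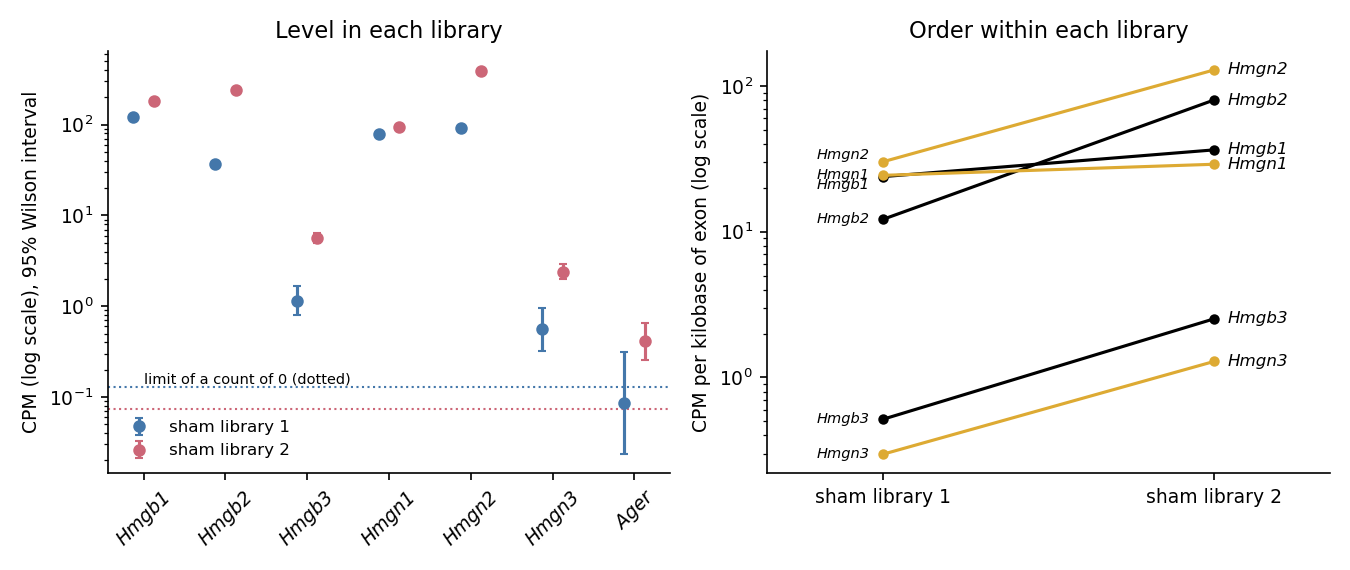
Left, the level of each gene in sham library 1 (blue) and sham library 2 (red) in CPM on a log axis, with bars for the 95% Wilson interval of counting error and dotted lines for the level a count of 0 allows in each library. Right, the same genes without Ager in CPM per kilobase of merged exon on a log axis (black lines HMGB, yellow lines HMGN). Hmgb1 and Hmgn1 lie close together in both libraries, while Hmgb2 passes Hmgb1, from 12.2 to 80.2 CPM per kilobase.

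Hmgb1 was an abundant transcript in both libraries. Its level was 120.1 CPM in library 1 (2807 counts, 95% Wilson interval 116 to 125) and 183 CPM in library 2 (7534 counts, 179 to 187), a mean of 152 ± 44.6 CPM (SD, n = 2). This mean was above that of 92.0% of the 13445 counted genes. The library 2 level was 1.53-fold the library 1 level (95% exact interval 1.46 to 1.59), a log2 ratio of 0.61 that stayed within 2-fold.

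Hmgb2, the closest relative of Hmgb1, was far less even. It stood at 36.6 CPM in library 1 (855 counts, interval 34.2 to 39.1) and at 241 CPM in library 2 (9904 counts, 236 to 246), with a mean of 139 ± 144 CPM (SD, n = 2). Library 2 was thus 6.58-fold higher (6.14 to 7.07; log2 ratio 2.72), a ratio above that of 99.0% of all counted genes. The SD exceeded the mean, with a coefficient of variation of 1.04. The 0.483 given for all genes is another measure, pooled over genes after TMM and without counting error, so the 2 values are not directly comparable.

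Hmgb3, the member of the family linked to blood stem cells and embryonic tissue, was scarce. It was read 27 times in library 1 (1.15 CPM, interval 0.794 to 1.68) and 232 times in library 2 (5.64 CPM, 4.96 to 6.41). The level in library 2 was 4.88-fold that in library 1 (3.27 to 7.57), with a mean of 3.40 ± 3.17 CPM (SD, n = 2). With so few counts in library 1, its interval was wide against its level.

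Among the nucleosome-binding genes, Hmgn1 was the most even of all members. Its level was 78.5 CPM in library 1 (1836 counts, interval 75.0 to 82.2) and 93.6 CPM in library 2 (3850 counts, 90.7 to 96.6), a mean of 86.1 ± 10.6 CPM (SD, n = 2). The ratio was 1.19 (1.13 to 1.26), larger than counting error but small against the spread of all genes.

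Hmgn2, which encodes the other major nucleosome-binding protein of the family, had the highest level of all 7 genes per length. It was at 92.6 CPM in library 1 (2164 counts, interval 88.7 to 96.5) and at 394 CPM in library 2 (16230 counts, 388 to 401), a mean of 244 ± 213 CPM (SD, n = 2). Its level in library 2 was 4.26-fold higher (4.07 to 4.46; log2 ratio 2.09). Hmgn1 and Hmgn2 therefore parted between the libraries as Hmgb1 and Hmgb2 did.

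Hmgn3, a family member known from the eye, the endocrine pancreas and the brain, was near the limit of the libraries. It had 13 counts in library 1 (0.556 CPM, interval 0.325 to 0.951) and 99 in library 2 (2.41 CPM, 1.98 to 2.93), a mean of 1.48 ± 1.31 CPM (SD, n = 2). The ratio was 4.33, with an interval from 2.42 to 8.41. Exons of Gm2065 and Gm29054 on the opposite strand cover 15.2% of its exon bases, and since the strand setting of the counting is not given in the sources used here, reads of these genes could not be told apart there.

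Ager, the receptor gene, was barely read. Library 1 held 2 counts (0.0855 CPM, interval 0.0235 to 0.312), under the limit of 3 counts, and library 2 held 17 (0.413 CPM, 0.258 to 0.662). The ratio of 4.83 had a counting interval from 1.15 to 43.1 and was not used in any count of genes. No exon base of Ager overlaps another annotated gene and none of its 75-base windows recurs in another gene's transcripts.

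Set beside all genes, the members leaned to library 2. Of the 6 counted members, 4 were over 2-fold higher in library 2 (Hmgb2, Hmgb3, Hmgn2 and Hmgn3) and 0 were over 2-fold lower. In the whole table, 772 of 13445 genes (5.74%) were over 2-fold higher and 3485 (25.9%) over 2-fold lower. The median log2 ratio was 2.10 over the 6 members and −0.26 over all counted genes. The background was denser for scarce genes, since 11.1% of genes within 1.5-fold of the mean level of Hmgb3 and 11.9% of those within 1.5-fold of that of Hmgn3 were over 2-fold higher in library 2. For Hmgb2 and Hmgn2 the same shares were 5.30% and 6.31%.

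Scaling shifted every log2 ratio by the same amount, which was large for Hmgb1 and Hmgn1 against their own ratios. TMM scaling moved the all-gene median log2 ratio to −0.03 and DESeq2 size factors to 0.01, and the part of all genes past 2-fold that lay higher in library 2 moved from 18.1% with totals to 29.7% and 32.8%. Both raised every ratio, so the same 4 members had to stay past 2-fold. The ratio of Hmgn1 went from 0.25 to 0.48 and 0.53 and that of Hmgb1 from 0.61 to 0.84 and 0.88. Measured from the all-gene median, the log2 ratio was 0.52 for Hmgn1, 0.87 for Hmgb1, 2.35 for Hmgn2 and 2.98 for Hmgb2. After subtraction of the median of genes alike in GC content and transcript length, it was 0.06 for Hmgn1, 0.38 for Hmgb1, 2.12 for Hmgn2 and 2.66 for Hmgb2. After this adjustment 9.70% of all genes were over 2-fold higher and 12.7% over 2-fold lower.

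**Figure D2:**
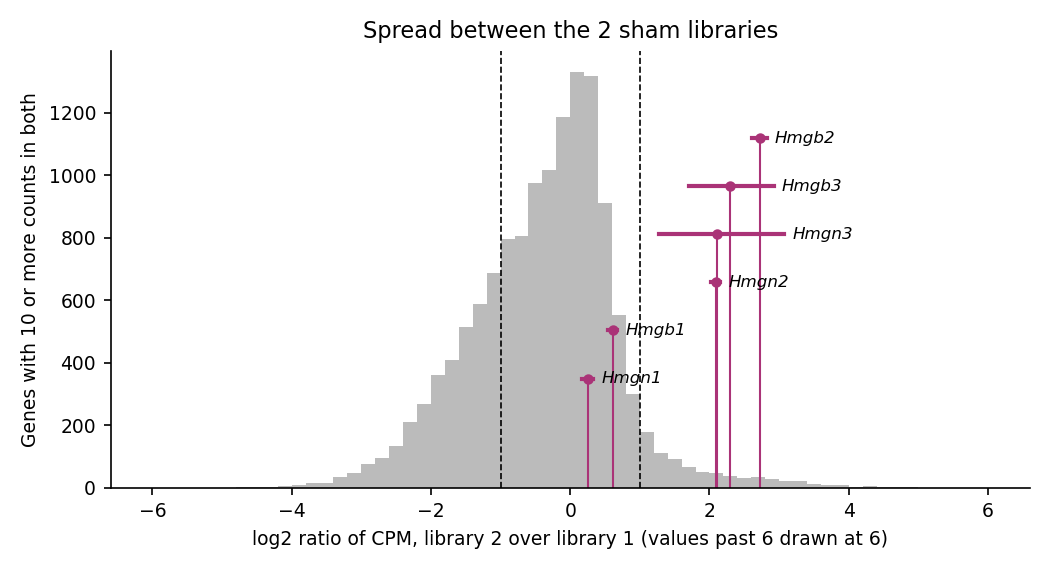
Log2 ratio of CPM, library 2 over library 1, as a histogram (grey, number of genes on the y axis) of the 13445 counted genes. The 6 counted members are marked by points with the exact 95% interval of counting error, their heights carry no value, and dashed lines mark 2-fold. Hmgb2, Hmgb3, Hmgn2 and Hmgn3 lie past the right line and Hmgb1 and Hmgn1 between the lines.

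Per kilobase of merged exon, the members fell into an abundant and a scarce tier. The order of mean levels was Hmgn2, Hmgb2, Hmgb1, Hmgn1, Hmgb3, Hmgn3 and Ager. Hmgn2 had 30.2 CPM per kilobase in library 1 and 129 in library 2, Hmgb2 12.2 and 80.2, Hmgb1 23.9 and 36.5, and Hmgn1 24.4 and 29.1. Within this upper tier the ranges of neighbouring genes overlapped. Hmgb3 followed at 0.517 and 2.52 CPM per kilobase, Hmgn3 at 0.297 and 1.29, and Ager at 0.040 and 0.193. Of the neighbours in this order, Hmgn1 and Hmgb3 were free of overlap over the 2 libraries, and so were Hmgn3 and Ager.

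Hmgb2 stood below Hmgb1 in library 1 and above it in library 2, while Hmgb1 kept the third place. Hmgn1 per kilobase was 1.02 times Hmgb1 in library 1 and 0.797 times Hmgb1 in library 2. The order of Hmgn1 and Hmgb1 in library 1 therefore rests on a small difference. Hmgb2 per kilobase was 0.509 times Hmgb1 in library 1 and 2.20 times Hmgb1 in library 2. Hmgb1 held 76.1% of the counts on the 3 HMGB genes in library 1 and 42.6% in library 2, and Hmgb2 23.2% and 56.0%. These shares leave out counts on pseudogene copies, which were 1028 and 2939 for Hmgb1 and 3 and 64 for Hmgb2. With such counts on its side, the place of Hmgb1 below Hmgb2 in library 2 counts is not secure. In the HMGN family, Hmgn2 per kilobase was 1.24 times Hmgn1 in library 1 and 4.44 times in library 2. These quotients are taken within a library and do not depend on how libraries are scaled to each other. With the length of the longest transcript in place of merged exons, Hmgb1 stood above Hmgb2 in the mean order and the other places were unchanged. That length is 2838 bases for Hmgb1 and 2628 for Hmgb2, against 5023 and 3003 for merged exons. The quotients per kilobase and the places within each library are given for merged exons only.

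The members past 2-fold were higher where markers of dividing cells and of neutrophils were also higher. All 10 dividing cell markers, among them Mki67 (3.93 and 9.60 CPM), Ccnb2 (2.48 and 25.2 CPM) and Cdk1 (6.29 and 25.2 CPM), were over 2-fold higher in library 2. Their sum was 5.29-fold higher, against 6.58-fold for Hmgb2 and 4.26-fold for Hmgn2. Hmgb2 was 1.19 times this sum in library 1 and 1.48 times in library 2, and Hmgn2 was 3.02 and 2.43 times. The immature neutrophil sum was 18.6-fold higher with 10 of 10 markers past 2-fold, the most uneven of them Ceacam10, and the mature neutrophil sum 10.4-fold higher with 8 of 9, the most uneven Mmp8. Hmgb2 was 0.0215 and 0.00762 times the immature neutrophil sum, and Hmgn2 was 0.0545 and 0.0125 times. Against the mature neutrophil sum, Hmgb2 was 0.0121 and 0.00769 times and Hmgn2 0.0307 and 0.0126 times. With 2 libraries these quotients only restate the fold differences of gene and sum. Sums of choroid plexus, basophil and mast cell, erythroid, and T cell and NK cell markers were also higher in library 2, as given below. The part of any of these marker groups in the levels of Hmgb2, Hmgb3, Hmgn2 and Hmgn3 was not tested. In bulk RNA fewer cells of a type cannot be told apart from less RNA per cell.

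Markers of other cells differed between the libraries too. The 8 monocyte markers, led by Chil3, summed to 987 and 3592 CPM with 3 over 2-fold higher and 2 lower, and the 7 border macrophage markers, led by Mrc1 with Cd163 the most uneven, to 466 and 243 CPM. The 6 choroid plexus markers, led by Ttr, summed to 24.5 and 370.2 CPM, and the 6 basophil and mast cell markers to 0.257 and 169 CPM, with Mcpt8, Prss34, Ms4a2 and Fcer1a at 0 and Cpa3 at 2 counts in library 1. The 8 erythroid markers, led by Car2, summed to 1.58 and 30.0 CPM, with Hba-a2, Hbb-bs and Hbb-bt at 0 and Hba-a1 at 1 count in library 1. The 7 T cell and NK cell markers, led by Cd3d, summed to 0.171 and 3.38 CPM, with Cd3e and Cd8a at 0 in both libraries, Cd3g, Ncr1 and Klrb1c at 0 in library 1 and Trac at 1 and 0 counts. The 7 B cell markers, nearly all of it Ighm, summed to 569.9 and 778 CPM, with Vpreb3 and Pax5 at 0 in library 1. Neuron, astrocyte, oligodendrocyte and endothelial lists of 6 markers each summed to between 3.21 and 235 CPM in library 1 and between 5.37 and 242 CPM in library 2, with Gad1 of neurons and Slco1c1 of endothelium at 0 and Cldn5 and Ly6c1 at 1 count in library 1. Their leading genes were Snap25, Slc1a3, Cnp and Pecam1, and among markers with 10 counts or more in each library Gja1 and Flt1 were the most uneven of astrocytes and endothelium.

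**Figure D3:**
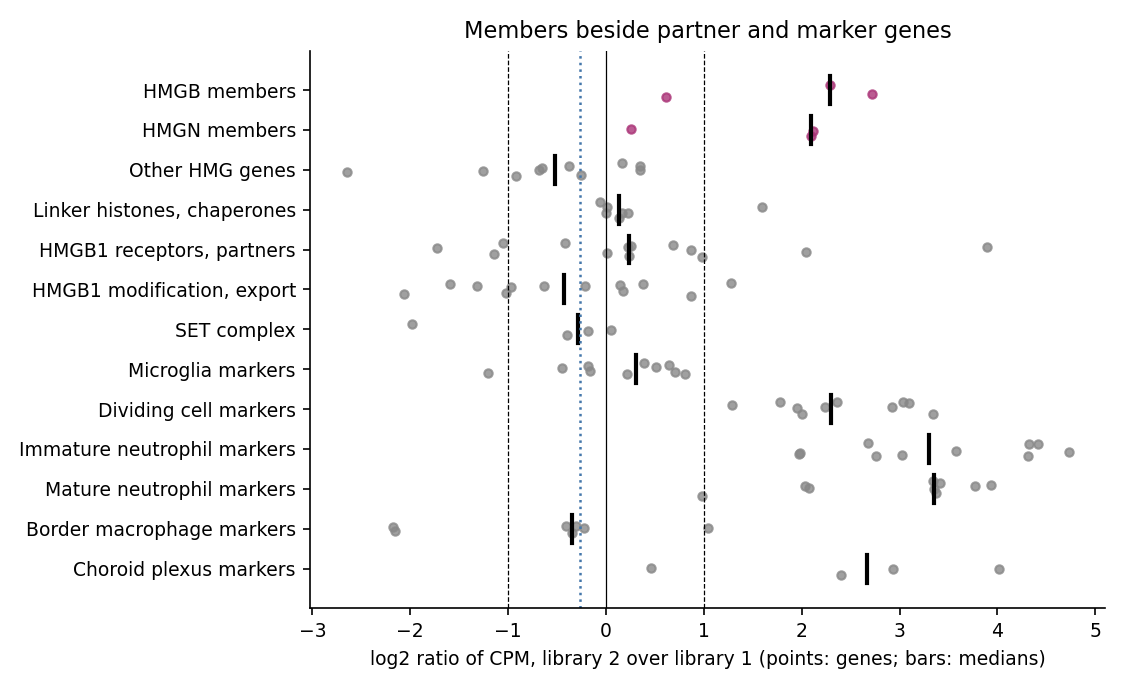
Log2 ratio of CPM, library 2 over library 1, for the counted genes of each list (points, with small vertical offsets that carry no value), with a black bar at the list median. Purple points are HMGB and HMGN members, dashed lines mark 2-fold and the dotted blue line the median of all counted genes (−0.26). All dividing cell and immature neutrophil markers lie past the right dashed line with 4 of the 6 members, and no gene on the list of other HMG genes does.

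Promoters are shown for the 3 HMGB genes and Hmgn2, since 3 of these 4 were past 2-fold and Hmgb1 was not. Each run is the 250 bases before an annotated start, 5′ to 3′ on the strand of the gene, from RefSeq on GRCm38.p6. RefSeq starts can differ from the GENCODE spans given above. The windows of Hmgb1 and Hmgn2 lie inside those spans, so the bases before their outermost GENCODE starts were not searched. Capitals mark 2 motifs searched on both strands. CCAAT, which reads ATTGG on the other strand, holds the letters bound by the factor NF-Y. TTTGAA, which reads TTCAAA on the other strand, is one form of the cell cycle genes homology region. In the printed windows no match overlapped another.
Hmgb1, chr5:149053058-149053307, minus strand: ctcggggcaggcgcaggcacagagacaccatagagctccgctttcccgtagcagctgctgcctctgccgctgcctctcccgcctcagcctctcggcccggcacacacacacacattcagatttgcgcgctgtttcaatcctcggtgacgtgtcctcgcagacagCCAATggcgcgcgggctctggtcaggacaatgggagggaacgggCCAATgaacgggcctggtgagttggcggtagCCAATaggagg
Hmgb2, chr8:57511593-57511842, plus strand: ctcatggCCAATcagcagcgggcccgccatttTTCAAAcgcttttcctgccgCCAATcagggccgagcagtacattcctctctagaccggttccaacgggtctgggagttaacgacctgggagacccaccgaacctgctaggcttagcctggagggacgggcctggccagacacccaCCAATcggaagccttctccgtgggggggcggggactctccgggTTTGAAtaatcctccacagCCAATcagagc
Hmgb3, chrX:71555667-71555916, plus strand: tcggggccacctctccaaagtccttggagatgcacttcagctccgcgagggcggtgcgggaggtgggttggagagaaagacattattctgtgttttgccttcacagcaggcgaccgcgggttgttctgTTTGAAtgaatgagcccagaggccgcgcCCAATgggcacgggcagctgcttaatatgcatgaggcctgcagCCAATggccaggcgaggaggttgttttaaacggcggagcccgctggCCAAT
Hmgn2, chr4:133967992-133968241, minus strand: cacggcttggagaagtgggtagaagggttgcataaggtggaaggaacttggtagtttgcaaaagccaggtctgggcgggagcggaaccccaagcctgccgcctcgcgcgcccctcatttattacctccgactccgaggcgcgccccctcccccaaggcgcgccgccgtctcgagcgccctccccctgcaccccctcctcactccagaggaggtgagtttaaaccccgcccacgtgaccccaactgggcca
The window of Hmgb2 held 4 CCAAT and 2 TTTGAA matches, that of Hmgb3 3 and 1, that of Hmgb1 3 and 0, and that of Hmgn2 0 of both. A second annotated start of Hmgb1 held 0 of both, Hmgn1 had 2 CCAAT matches and Ager 1, and Hmgn3 was not analysed here. Of 32851 promoters of the same length, 33.9% held CCAAT, 2.79% held at least 3 of them, 16.0% held TTTGAA and 5.55% held both. A match is a description of letters and not of a bound site.

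Hmgb1 has many processed copies in the mouse genome. Of its distinct 75-base windows, the length of the reads, 20.5% recurred exactly in transcripts of other annotated genes, 86 in number, and 80 of these were pseudogenes. The share was 17.5% in Hmgb2 and Hmgb3, 20.6% in Hmgn2, 8.30% in Hmgn3 and 2.67% in Hmgn1. These shares pool all annotated transcripts of a gene. On the longest transcript alone the share was 37.3% in Hmgb1, 20.8% in Hmgb2 and 24.7% in Hmgb3. It was 15.6% in Hmgn2, 1.97% in Hmgn3 and 4.05% in Hmgn1. A read from such a window cannot be placed by its sequence alone. Reads were paired, and whether the mate of such a read lay outside the copied windows was not examined. The shares are therefore of windows and not of read pairs. Of the 80 Hmgb1 pseudogenes 64 had counts, in sum 1028 in library 1 and 2939 in library 2, which equals 36.6% and 39.0% of the counts on Hmgb1 itself. The copies of the other members took at most 35 counts in library 1 and 335 in library 2, both for Hmgn2, or 1.62% and 2.06% of its own counts. The copies of Hmgb3 had 3 and 12 counts, which equals 11.1% and 5.17% of the few counts on Hmgb3. Gm10282, annotated as protein-coding and named here after its values were seen, shared 666 windows with Hmgn2 and had 8 and 155 counts.

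The 3 pseudogenes with the most counts are shown beside Hmgb1 to make plain how close they are. Each line gives coding bases 4 to 93 of Hmgb1 or the aligned bases of the copy (GENCODE M21, GRCm38), and capitals mark bases that differ from Hmgb1.
Hmgb1: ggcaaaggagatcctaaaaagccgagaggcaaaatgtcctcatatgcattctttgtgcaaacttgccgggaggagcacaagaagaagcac
Gm5518: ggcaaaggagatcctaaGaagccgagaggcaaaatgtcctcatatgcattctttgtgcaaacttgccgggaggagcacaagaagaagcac
Hmgb1-ps2: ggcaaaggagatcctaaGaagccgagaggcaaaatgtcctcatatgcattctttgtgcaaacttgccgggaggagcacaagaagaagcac
Gm5527: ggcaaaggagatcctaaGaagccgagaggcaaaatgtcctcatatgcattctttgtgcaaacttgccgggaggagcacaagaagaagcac
Each copy differed from Hmgb1 at 1 of these bases. Gm5518 (chr19:29160118-29160765), 99.2% identical to the Hmgb1 coding sequence over 645 aligned bases, had 439 counts in library 1 and 1234 in library 2. Hmgb1-ps2 (chrX:146175942-146176577) was 99.5% identical and had 94 and 355 counts. Gm5527 (chr1:52584518-52585159) was 98.6% identical and had 100 and 323 counts. With all pseudogene counts added, the mean level of Hmgb1 became 209 CPM. Whether reads of Hmgb1 were counted on its copies was not tested, and the reads were not used here.

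**Figure D4:**
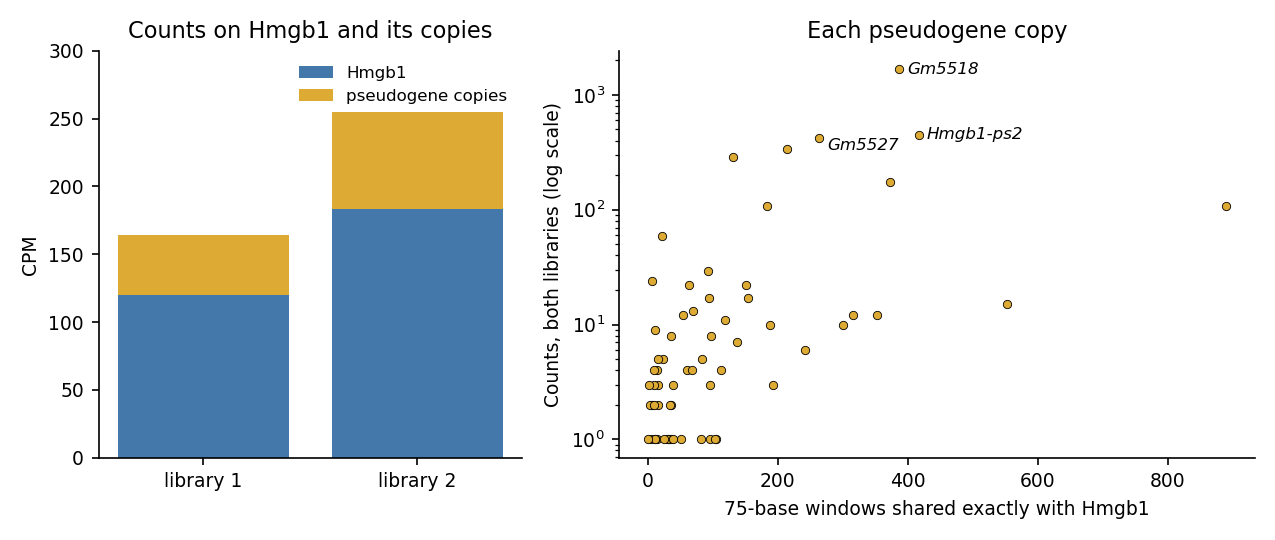
Left, CPM on the Hmgb1 row (blue) and on its annotated pseudogene copies (yellow) stacked from 0 for each sham library. Right, each pseudogene copy with counts as a point, with the 75-base windows it shares exactly with Hmgb1 on the x axis and its counts in both libraries together on a log y axis. Gm5518 stands highest with 1673 counts.

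The genes nearest to Hmgb1 and Hmgb2 in log2 CPM over the 2 libraries, among 11501 counted protein-coding genes, were unlike each other. For Hmgb1 they were Stard3nl (122 and 183 CPM), Chchd2 (116 and 189.8 CPM) and Vdac3 (117 and 175 CPM), genes of late endosomes and mitochondria. For Hmgb2 they were Hdc, the enzyme that makes histamine (36.2 and 219 CPM), Mcemp1 (33.1 and 252 CPM) and Slpi, a protease inhibitor of leukocytes (45.3 and 277 CPM). With 2 libraries such nearness means no more than similar levels in both.

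Other HMG-box and high mobility group genes lay near the background of all genes. Of 12 genes 10 were counted, 0 were over 2-fold higher, against 5.74% of all genes, and 2 lower, against 25.9%, with a median log2 ratio of −0.52. With the GC and length adjustment that median was 0.0052 and 1 gene was lower, Hmgxb3 going from −2.65 to −0.92 and Ubtf from −0.66 to 0.88. Ubtf, a factor of ribosomal RNA transcription and the most abundant, had 84.9 and 53.9 CPM. Ssrp1, an HMG-box subunit of the histone chaperone FACT, had 94.9 and 39.6 CPM, and Hmgxb3 40.8 and 6.49 CPM. Exons of Csf1r on the opposite strand cover 8.0% of the exon bases of Hmgxb3. As the strand setting of the counting is not given, reads of Csf1r could not be told apart there. The testis gene Hmgb4 had 0 counts in both libraries and the embryonic gene Hmga2 had 0 and 4.

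Linker histones, with which HMGN proteins compete, and their chaperones were closer to even. Of 10 genes 7 were counted, and the median log2 ratio was 0.13. Over 2-fold higher was 1 and lower 0, against 5.74% and 25.9% of all genes. These 7 are too few to set such counts apart from the background. The replication-independent histone H1f0 had 71.4 and 71.6 CPM, and Ptma, a chaperone of linker histones, 193 and 212 CPM. Hist1h1c was the exception with 18.1 and 54.8 CPM (log2 ratio 1.60). H1fx had 0 counts in both libraries and Hist1h1b 1 and 9.

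Receptors for extracellular HMGB1 other than RAGE ranged widely in level. Of 15 genes of receptors, co-receptors and partners 13 were counted, with a median log2 ratio of 0.24. Over 2-fold higher were 2 and lower 3, against 5.74% and 25.9% of all genes. With TMM or DESeq2 scaling these counts were 4 and 1, against 8.46% and 20% of all genes with TMM and 9.28% and 19% with DESeq2. With the GC and length adjustment they were 2 and 0. Tlr2 had 206 and 207 CPM, Tlr4 119.5 and 89.5 CPM, and their co-receptor Cd14, the most abundant gene of the list, 765 and 1235 CPM. Per kilobase, Tlr2 had 68.2 and 68.8 CPM and Ager 0.040 and 0.193 CPM. Cd24a, which binds HMGB1 together with a Siglec, had 12.6 and 187 CPM and Trem1, an amplifying receptor of myeloid cells, 37.2 and 153 CPM. Tlr9, the DNA sensor, had 12.4 and 3.74 CPM and the chemokine receptor Cxcr4 1.88 and 3.72 CPM. The heparan sulfate carrier Sdc1 had 4 and 2 counts, and the chemokine Cxcl12 7 and 28.

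The ligands of RAGE were uneven in part. Of 7 genes of ligands and signalling 6 were found. Over 2-fold higher were 2 and lower 0, against 5.74% and 25.9% of all genes, and 6 genes are too few to set these counts apart from the background. S100a8, the most abundant, had 1396 and 14266 CPM and S100a9 1132 and 12075 CPM, and both are also on the mature neutrophil list. S100b, a ligand made by glia, had 0.642 and 1.05 CPM, and Diaph1, which binds the inner tail of RAGE, 11.7 and 14.1 CPM.

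Genes that modify, export or cleave HMGB1 were counted in full, 12 of 12. Over 2-fold higher was 1, Txn1 (59.5 and 145 CPM), and 4 were lower, against 5.74% and 25.9% of all genes, with a median log2 ratio of −0.43. TMM and DESeq2 scaling gave 2 higher and 3 lower. The GC and length adjustment gave 1 higher and 1 lower and a median of 0.02, and it brought Ep300 from −2.06 to −0.68, Crebbp from −1.32 to 0.07 and Parp1 from −1.02 to −0.28. The acetyltransferase gene Ep300 had 139 and 33.3 CPM and the nuclear exporter Xpo1 39.7 and 13.2 CPM. Prdx1, which oxidises HMGB1 before secretion, was the most abundant with 307 and 347 CPM, and Casp1, the protease of the inflammasome, had 43.8 and 80.2 CPM.

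In the SET complex, in which HMGB2 takes part with nucleases, 4 of 6 genes were counted, too few to set apart from the background. Of these 4, 0 were over 2-fold higher and 1 lower, against 5.74% and 25.9% of all genes, and the median log2 ratio was −0.29. Set itself had 137 and 34.7 CPM, in the direction opposite to Hmgb2. Gzma, the granzyme that cleaves HMGB2 and Set, had 0 and 11 counts. Trex1 had 0 counts in both libraries, and exons of Atrip on the same strand cover 100% of its exon bases.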

How the data were processed

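Total RNA of sorted cells was turned into cDNA with the SMART-Seq HT Kit and into libraries by Nextera XT tagmentation, read as 75-base pairs. The authors checked reads with FastQC, aligned them to GRCm38 using HISAT2 and obtained raw counts for each Ensembl gene using HTSeq, which were deposited without normalization. Versions, annotation release and strand setting are not given in the sources used here. Start positions count from 0 in the tables and had 1 added.

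Symbols came from GENCODE M21 for 53620 of 53801 identifiers. CPM was the count divided by all counts on genes, times 1000000. Levels carry the mean and SD of 2 libraries and 95% Wilson intervals, and ratios exact binomial intervals. Genes reaching 10 counts in each library were compared, and over 2-fold was called apart. Comparison of levels between genes used the merged exon length. GC content and length were adjusted over 10 bins each, for 13439 genes, where at least 20 genes shared a bin. Recurrence of 75-base windows was searched in annotated transcripts, since a genome sequence was not used here. Gene lists comprised 6 of partner genes and 15 of cell markers. Members and lists were chosen with earlier results of these data known. Named were all members, from the other lists at least the most abundant gene, genes under 3 counts and the most uneven gene, the 3 nearest genes of Hmgb1 and Hmgb2 and the 3 pseudogenes with the most counts. Some genes this rule covers, and a microglia sum that leaves one out, are not reported here. Each sample was 1 mouse, so the spread joins that between mice and that of preparation. Tools were R 4.3.3, edgeR 4.0.16 (common dispersion, intercept only, TMM, its low count filter), DESeq2 1.42.0, Python 3.11.15, numpy 2.4.6, scipy 1.17.1, pandas 2.3.3, Biopython 1.88 and matplotlib 3.10.9. The spread and adjustment steps were tested on simulated data. Alternatives were other scalings, filters, lengths and folds, added copies and leaving out each library.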

Additional observations from a re-analysis of the deposited data

How the results depend on the processing

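The 6 counted members kept the direction of their ratio under each scaling, added pseudogene counts, the GC and length adjustment and measurement from the all-gene median, as did Ager except that it was not adjusted for GC and length. The scalings and the all-gene median shifted every ratio by the same amount. This shift was upward except for totals without mitochondrially encoded genes, where Hmgn1 went from 0.253 to 0.248. An upward shift can neither reverse a positive ratio nor bring it back within 2-fold. Past 2-fold were 4 of 6 counted members under all of these. With 1.5-fold there were 5, the added one being Hmgb1 at 1.53-fold, and with 4-fold 4. The share of all genes past 1.5-fold or 4-fold is not given here, so these counts have no background beside them. Adding pseudogene counts raised the Hmgb1 level from 152 to 209 CPM. The share of all genes past 2-fold was 31.7% and became 29.3% at 50 counts (10588 genes) and 38.0% at 1 count (19207 genes), 28.5% with TMM, 28.3% with DESeq2 size factors and 22.4% with the GC and length adjustment. The coefficient of variation of all genes, 0.483, became 0.557 without the low count filter, 0.504 without TMM and 0.288 as the DESeq2 median. Without its most abundant gene, the mean summed level became 302 CPM for linker histones (Ptma), 1353 for HMGB1 receptors (Cd14), 730.2 for HMGB1 modification (Prdx1), 54.9 for the SET complex (Set), 55.2 for B cells (Ighm), 1.97 for neurons (Snap25), 7.52 for astrocytes (Slc1a3), 106 for oligodendrocytes (Cnp) and 3.93 for endothelial cells (Pecam1). Leaving out a library gave 120.1 to 183 CPM for Hmgb1, 36.6 to 241 for Hmgb2, 1.15 to 5.64 for Hmgb3, 78.5 to 93.6 for Hmgn1, 92.6 to 394 for Hmgn2, 0.556 to 2.41 for Hmgn3 and 0.0855 to 0.413 for Ager. The order of levels had 2 neighbouring pairs apart with each length used; a single library leaves no range for it. No paired analysis was possible because there was 1 group. The search of windows in transcripts, the ratio from the all-gene median and these scalings and adjustment of the list and all-gene counts past 2-fold were chosen after seeing the data, and the search in the genome was not run. With 2 libraries the spread of a member rests on 1 difference, and the counts of Ager, Hmgn3 and Hmgb3 in library 1 limit their ratios.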
